A study of Mus musculus with 14 samples.

Results

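Clade B serpins belong to a family made up mostly of protease inhibitors, and Spink5 encodes a protease inhibitor of another family. Together 10 of these genes were followed through bulk RNA-Seq of mouse esophagus. The genes were Serpinb1a, Serpinb2, Serpinb3a, Serpinb5, Serpinb6a, Serpinb9, Serpinb11, Serpinb12, Serpinb13 and Spink5. They were taken by gene symbol, and each symbol was found once among the 55291 genes of the count tables. The mice were of the strain C57BL/6, with no treatment or altered gene named in the labels, and were called young (4 months or less) or aged (18 months or more). The muscle layer was pulled off the dissected esophagus with forceps, which left an epithelium-enriched sheet. Peeled epithelium was sequenced from 5 aged mice (O1, O2, O3, OF5 and OM8) and 4 young mice (Y1, Y3, YF5 and YM4). The matching stroma was available for 3 aged animals (O1, O2, O3) and 2 young animals (Y1, Y3). Sex is given for OM8 and YM4 (male) and for YF5 (female) only. Each sample holds RNA of all cells of a sheet, so more cells of a type and more RNA per cell cannot be told apart.

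Serpins inhibit proteases by offering a reactive loop that the protease cuts, after which the serpin snaps shut and traps the enzyme. Clade B serpins lack a classical secretion signal and act largely inside cells, where they guard against proteases that leak from granules, lysosomes or the outside. Many are made by stratified squamous epithelium, the lining of the esophagus and skin. Spink5 encodes LEKTI, a secreted inhibitor of another class (Kazal type) that restrains the kallikrein proteases which cut the contacts between shedding surface cells. Loss of the human gene causes Netherton syndrome, a disorder of the skin barrier.

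Total counts ran from 8217516 to 21867101 per sample. The epithelial samples of OF5, OM8, YF5 and YM4 were the shallowest, with 1042394 to 1433857 counts in protein-coding genes against 7971284 to 11067322 in the other 5 epithelial samples. Their total counts were 8217516 to 9399448 against 16477424 to 21867101, so a smaller share of their counts lay in protein-coding genes. Their TMM factors were 0.256 (YF5) to 0.506 (OM8) against 1.29 (Y1) to 1.74 (O1). The labels give no reason for this, and its part in the age differences was not tested. A floor of 3 counts was worth 0.0872 to 1.25 normalized counts. Normalized counts are CPM values computed from library sizes that TMM had adjusted within the comparison in question. The labels were checked against marker genes fixed for each cell type. All 7 basal keratinocyte markers (such as Krt5) and all 9 markers of differentiated keratinocytes (such as Krt13) were higher in epithelium, and all 12 skeletal muscle markers were higher in stroma. Only 3 of 6 fibroblast markers and 5 of 6 endothelial markers were higher in stroma, and the fibroblast markers summed to 280 to 632 normalized counts in epithelium against 415 to 1031 in stroma. The tissue labelled stroma was thus rich in RNA of striated muscle, and fibroblast RNA was present in both layers.

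The 9 serpins lie in 2 clusters of the mouse genome (GRCm38, GENCODE M21 annotation), and all 10 genes are protein-coding. Serpinb5, Serpinb12, Serpinb13, Serpinb3a, Serpinb11 and Serpinb2 form a cluster on chromosome 1, from the start of Serpinb5 at 106861173 to the end of Serpinb2 at 107535478. Serpinb1a (32842092 to 32851185), Serpinb9 (33003250 to 33017957) and Serpinb6a (33917918 to 34002794) lie in a second cluster on chromosome 13. Reads of some members can be split with neighbours or paralogs. Of the 50-base stretches of its transcripts, Serpinb6a shared 25.1% with other genes, Serpinb3a 15.0%, Serpinb2 10.4%, Serpinb1a 2.81% and Serpinb9 0.378%, while the other 5 genes shared none.

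Promoter windows of RefSeq (GRCm38.p6) were available for 7 of the 10 genes. Of 4 genes whose window held no annotated exon, 3 were far higher in epithelium than in stroma, and Serpinb9 was not. In the GENCODE annotation the Serpinb9 window lies inside the gene, which begins at 33003250. The windows shown for the other 3 genes adjoin the start of the gene. The 250 bases before the RefSeq start are shown for these 4 genes. They run 5′ to 3′ on the strand of the gene, and capitals mark matches on either strand to TATAAA, to TGANTCA (the AP-1 consensus) or to TTGCNNAA (the C/EBP consensus).
Serpinb12, chr1:106934199-106934448, plus strand: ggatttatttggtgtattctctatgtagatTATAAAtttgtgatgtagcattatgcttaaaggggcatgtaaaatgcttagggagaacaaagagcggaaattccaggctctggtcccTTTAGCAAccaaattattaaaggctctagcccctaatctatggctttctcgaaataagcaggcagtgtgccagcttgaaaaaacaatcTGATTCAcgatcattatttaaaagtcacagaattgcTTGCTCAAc
Serpinb3a, chr1:107052304-107052553, minus strand: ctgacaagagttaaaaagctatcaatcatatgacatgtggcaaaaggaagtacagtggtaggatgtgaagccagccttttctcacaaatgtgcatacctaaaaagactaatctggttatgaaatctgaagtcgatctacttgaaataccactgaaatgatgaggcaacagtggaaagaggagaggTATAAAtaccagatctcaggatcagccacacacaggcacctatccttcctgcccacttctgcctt
Serpinb2, chr1:107511173-107511422, plus strand: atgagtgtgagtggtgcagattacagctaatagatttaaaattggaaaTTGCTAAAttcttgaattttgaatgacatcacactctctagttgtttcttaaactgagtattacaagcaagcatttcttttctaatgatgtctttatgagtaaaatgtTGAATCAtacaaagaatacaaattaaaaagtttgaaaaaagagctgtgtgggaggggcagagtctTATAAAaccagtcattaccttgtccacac
Serpinb9, chr13:33004291-33004540, plus strand: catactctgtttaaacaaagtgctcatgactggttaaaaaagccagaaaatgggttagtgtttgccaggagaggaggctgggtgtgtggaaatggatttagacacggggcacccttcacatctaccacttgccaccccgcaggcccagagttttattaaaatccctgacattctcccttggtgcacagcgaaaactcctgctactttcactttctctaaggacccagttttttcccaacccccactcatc
Serpinb2 and Serpinb12 held a match to each of the 3 motifs, Serpinb3a held TATAAA alone, and Serpinb9 held none. TATAAA began at -29 in Serpinb2, at -65 in Serpinb3a and at -220 in Serpinb12, counted back from the start. Over the 10 windows of these genes, which overlap for Serpinb2, TATAAA was found in 5, TGANTCA in 5, TTGCNNAA in 3 and AACNGGTT (the Grainyhead-like consensus) in 0. Of 32851 RefSeq promoter windows of the same length, 12.4% held TATAAA, 6.75% TGANTCA, 9.56% TTGCNNAA and 1.79% AACNGGTT. A match describes the letters of the window and is not evidence that a factor binds there.

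The first question was whether the genes mark the peeled epithelium against the tissue peeled from it. Between epithelium and stroma, 8 of the 10 genes were higher in epithelium and 2 were higher in stroma (edgeR quasi-likelihood test, Benjamini-Hochberg adjusted p under 0.05, 9 epithelial against 5 stromal samples). Of all 16791 genes tested, 26.1% were called higher in epithelium and 30.1% lower. The median log2 fold change was 6.48 over the 10 genes and -0.05 over all genes tested. For all 8 higher genes, every epithelial sample lay above every stromal sample, as 14.4% of all genes did.

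**Figure D1:**
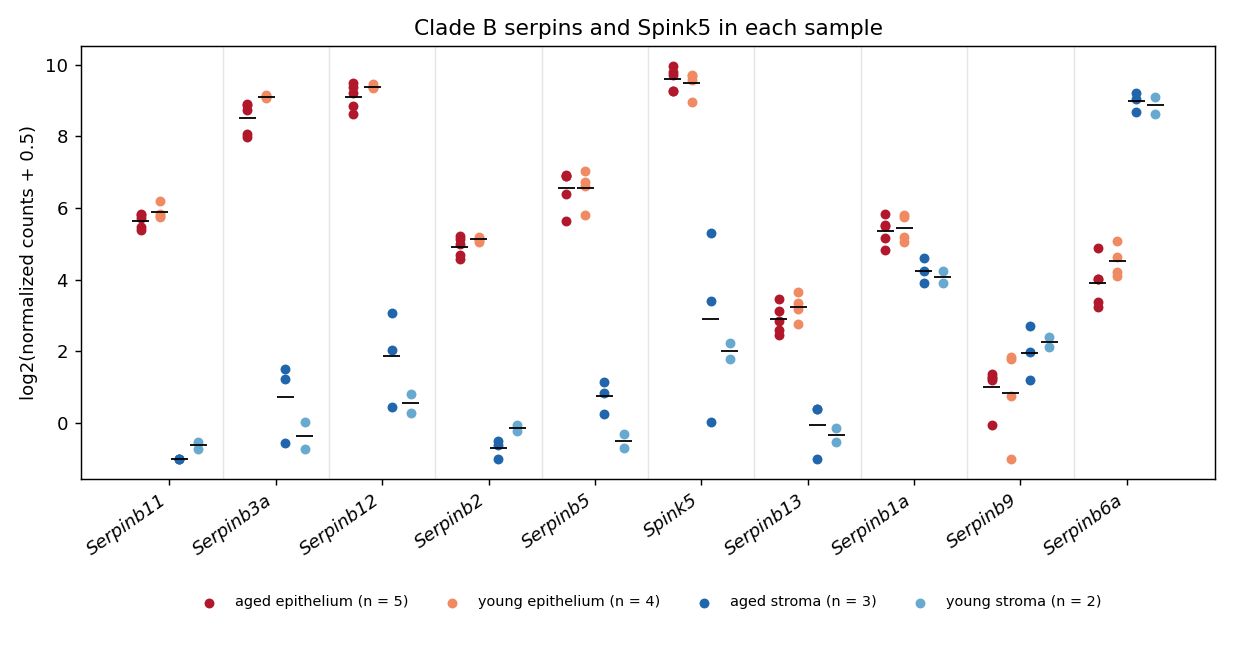
Level of each gene in each of the 14 samples, as log2 of normalized counts plus 0.5, with points coloured by layer and age and a bar at each group mean. Serpinb11, Serpinb3a, Serpinb12, Serpinb2, Serpinb5, Spink5, Serpinb13 and Serpinb1a sit higher in epithelium, Serpinb6a sits higher in stroma, and the layers overlap for Serpinb9.

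Spink5, which lies apart from the serpins on chromosome 18 (43963235 to 44022501, with 32 exon blocks), had the highest mean of normalized counts over the 9 epithelial samples, 763 ± 161 (SD, n = 9), although Serpinb12 and Serpinb3a were above it in YF5. It ranged from 496 (YF5) through a median of 823 to 1006 (O2). In stroma it read 0.525 in O1, 38.9 in O2, 10.1 in O3, 4.18 in Y1 and 2.95 in Y3. The stromal samples thus spread widely, with O2 the highest and O1 near its floor. The log2 fold change was 6.07 (SE 0.84, adjusted p = 1.35e-05 by edgeR), and it was 7.34 without mouse O2 and 7.36 when the layers were paired within the 5 mice that have both (mouse block).

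Among the inhibitors of trypsin-like and papain-like proteases, Serpinb12 ranged from 395 (OM8) through a median of 664 to 717 (O2) normalized counts in epithelium. Its stromal values were 0.875 (O1), 7.89 (O2), 3.63 (O3), 0.722 (Y1) and 1.26 (Y3). O2 was again the highest stromal sample, and the log2 fold change was 7.72 (SE 0.61, adjusted p = 2.94e-09), or 8.49 without mouse O2 and 8.40 with the mouse block. Serpinb3a, a counterpart of the human squamous cell carcinoma antigens, ranged from 251 (OM8) through 478 to 567 (Y3) in epithelium. In stroma Serpinb3a read 0.175 (O1), 1.85 (O2), 2.37 (O3), 0.103 (Y1) and 0.512 (Y3). The epithelial values stood far from the stromal ones, with a log2 fold change of 8.78 (SE 0.70, adjusted p = 6.67e-09).

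Serpinb11 was the most one-sided member. It ranged from 41.7 (OM8) through 54.6 to 72.7 (YM4) normalized counts in epithelium. In stroma its raw counts were 0 in O1, O2 and O3, 2 in Y1 and 5 in Y3. Only Y3 therefore passed the floor of 3 counts, and the log2 fold change of 9.63 (SE 0.42, adjusted p = 7.47e-13) rested on 7 stromal counts in all. Without mouse Y3 it was 10.78.

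Serpinb2 (PAI-2), an inhibitor of urokinase, ranged from 23.3 (OM8) through 33.9 to 36.4 (O2) normalized counts in epithelium. Its stromal values were 0 (O1), 0.205 (O2), 0.153 (O3), 0.464 (Y1) and 0.355 (Y3), each from at most 9 reads. Serpinb2 had the narrowest relative spread in epithelium, with a mean of 32.2 ± 4.68 (SD, n = 9), and a log2 fold change of 7.04 (SE 0.35, adjusted p = 2.86e-12). Exons of Serpinb10 on the same strand cover 12.4% of its exon bases, and Serpinb10 had 20 to 558 counts in the epithelial samples against 74 to 1203 of Serpinb2.

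Serpinb5 (maspin), which does not inhibit proteases and is known as a tumour suppressor of epithelia, ranged from 49.3 (OF5) through 106 to 129.8 (Y1) normalized counts in epithelium. It read 1.28 (O1), 1.73 (O2), 0.689 (O3), 0.310 (Y1) and 0.118 (Y3) in stroma. The log2 fold change between the layers was 6.89 (SE 0.52, adjusted p = 4.43e-09 by edgeR). Serpinb13 (headpin), an inhibitor of lysosomal cathepsins, was expressed at a low level, from 4.95 (OM8) through 8.31 to 12.1 (Y1) in epithelium. Its stromal values were 0.817 (O1), 0.822 (O2), 0 (O3), 0.413 (Y1) and 0.197 (Y3), and its log2 fold change was 4.22 (SE 0.52, adjusted p = 8.12e-07).

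The 3 genes of chromosome 13, whose known targets are proteases of leukocyte granules, did not follow this pattern. Serpinb1a, an inhibitor of neutrophil elastase and cathepsin G, ranged from 27.9 (OF5) through 45.0 to 56.2 (O2) normalized counts in epithelium. It was present in every stromal sample, at 18.6 (O1), 23.7 (O2), 14.4 (O3), 18.5 (Y1) and 14.4 (Y3). The layers did not overlap, but the difference was small, with a log2 fold change of 1.28 (SE 0.19, adjusted p = 1.22e-05).

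Serpinb6a was the reverse of the genes called higher in epithelium. It read 589 (O1), 531 (O2), 409 (O3), 545 (Y1) and 398 (Y3) normalized counts in stroma and from 8.96 (OF5) through 16.8 to 33.3 (YF5) in epithelium. Every stromal sample lay above every epithelial sample, as for 16.9% of all genes, and the log2 fold change was -4.69 (SE 0.27, adjusted p = 1.94e-11). Serpinb6a made up 87.3% to 95.8% of the summed normalized counts of the 10 genes in stroma and 0.595% to 1.75% in epithelium. Skeletal muscle markers moved with it, at 42353 to 76538 summed normalized counts in stroma against 169 to 1855 in epithelium (none of the 12 at 0 in any stromal sample), and YF5 had the highest epithelial value of both. The part of muscle RNA in the level of Serpinb6a was not tested.

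Exons of Nqo2, Ripk1 and 1110046J04Rik lie opposite 29.3% of the exon bases of Serpinb6a, and whether strand was used in counting is not given in the sources used here. In stroma these 3 genes together had 509 to 877 counts, which was 4.82% to 7.38% of the 10096 to 12916 counts of Serpinb6a. In epithelium they had 11 to 486 counts against 26 to 749 of Serpinb6a, so the low epithelial values of Serpinb6a are the less certain ones.

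Serpinb9, the inhibitor of granzyme B, had the fewest counts of the 10 genes in epithelium. It had 0 to 9 raw counts in the 4 shallow epithelial samples and 34 to 90 in the others, or 0 (YF5) through 1.88 to 3.12 (YM4) normalized counts. From 44 to 158 raw counts, it read 3.44 (O1), 1.81 (O2), 6.04 (O3), 4.80 (Y1) and 3.82 (Y3) in stroma. The layers overlapped, and the log2 fold change of -1.17 (SE 0.44) passed the threshold narrowly (adjusted p = 0.0279 by edgeR). The call was lost with the mouse block (log2 fold change -0.96, adjusted p = 0.0861), without the filter on low counts (-0.97, adjusted p = 0.0792), without mouse O3 (-0.98, adjusted p = 0.0886) and without mouse Y1 (-1.02, adjusted p = 0.106). Summed leukocyte markers ran from 88.7 to 288 in stroma and from 35.8 to 91.0 in epithelium. O3 was the highest stromal sample both in these markers and in Serpinb9. O2 came next in the markers (119) but was the lowest stromal sample in Serpinb9. In epithelium OF5 was highest in the markers and YM4 in Serpinb9. Of these 12 markers, 4 of the 7 tested were called higher in stroma and 1 (S100a9) higher in epithelium, and the T cell markers Cd3e and Cd3g were both at 0 in 1 stromal (O1) and 3 epithelial samples (OF5, Y1 and YF5). The part of leukocyte RNA was not tested.

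In the 5 mice with both layers, the stromal level can be given as a share of the level in the same mouse's epithelium. Beside the genes stand 6 keratinocyte markers, the keratins Krt5 and Krt14 of basal cells and Krt4, Krt13, Krtdap and Lor of differentiated cells. Their shares ran from 0% (Lor) to 0.779% (Krt14) in O1, 0.826% (Krt4) to 2.58% (Krt14) in O2, 0.365% (Krt13) to 1.95% (Krt14) in O3, 0.1199% (Krt4) to 0.425% (Krt14) in Y1 and 0.0759% (Krt13) to 0.268% (Krt14) in Y3. Spink5 stood at 0.0590% (O1), 3.87% (O2), 1.21% (O3), 0.508% (Y1) and 0.350% (Y3). Its share was above all 6 markers in O2, Y1 and Y3 and within their range in O3. In O1 it was above Lor alone, which had 0 stromal counts, and below the next lowest marker, Krt13 at 0.0762%.

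Serpinb12 stood at 0.148% (O1), 1.10% (O2), 0.545% (O3), 0.103% (Y1) and 0.189% (Y3), and Serpinb3a at 0.0407% (O1), 0.387% (O2), 0.508% (O3), 0.0190% (Y1) and 0.0903% (Y3). Serpinb12 was within the range of the markers in 4 of the 5 mice and below it in Y1, and Serpinb3a was within it in 3 and below it in O2 and Y1. In O1, 1 of these 3, Serpinb3a was above Lor (0%) alone and below the next lowest marker, Krt13 at 0.0762%. The 2 mice with the highest shares were O2 and O3 for Krt13, Spink5, Serpinb12 and Serpinb3a. Other members differed in this. The mice were O2 and O1 for Serpinb5, O1 and O2 for Serpinb13, and Y1 and Y3 for Serpinb2 and Serpinb11. The last pair of genes had at most 9 counts in any stromal sample. Serpinb13 reached 9.82% in O1, and Serpinb1a stood at 26.9% to 42.1% in every mouse. Serpinb9 stood at 96.3% to 398% and Serpinb6a at 1395% to 3780%. The part of carried-over epithelium in the low stromal values was not tested.

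**Figure D2:**
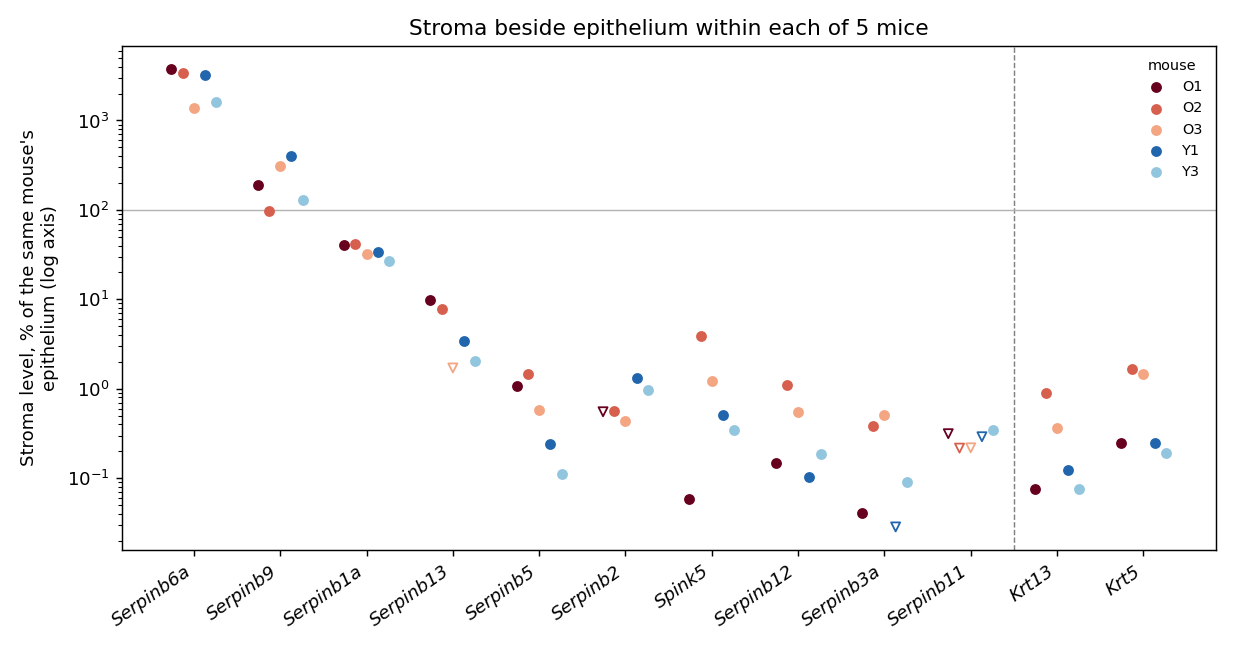
Stromal level as a percentage of the epithelial level of the same mouse, on a log axis, for the 10 genes and for the keratins Krt13 and Krt5, with a point per mouse. Open triangles stand for stromal samples under 3 counts and are drawn at that floor. Serpinb6a lies between 1395% and 3780% and Serpinb1a between 26.9% and 42.1%, while Spink5 and Serpinb12 lie between 0.0590% and 3.87%.

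Position in the genome went along with the layer difference. The 6 genes of chromosome 1 had log2 fold changes of 4.22 to 9.63, and the 3 genes of chromosome 13 had log2 fold changes of -4.69 to 1.28. The other clade B serpins formed a list of 18 genes. Of them, 6 had enough counts to be tested and 5 were higher in epithelium, with none lower and a median log2 fold change of 5.53. All 5 lie in the chromosome 1 cluster, and the 3 with the largest difference were Serpinb3b (log2 fold change 7.21, SE 0.52), Serpinb7 (6.56, SE 0.63) and Serpinb3c (5.83, SE 0.93). Serpinb6b on chromosome 13 was tested and not called, at -0.27 (SE 0.50, adjusted p = 0.673). The other 12 serpins, 11 of them on chromosome 13, did not pass the filter on low counts. Serpinb3b, Serpinb7 and Serpinb3c averaged 0.0741, 0.0767 and 1.11 normalized counts per kb in stroma. They passed the filter mainly through epithelium, so their direction adds no support for a link with position. The genes of a cluster were not treated as independent, and no test of position was run.

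**Figure D3:**
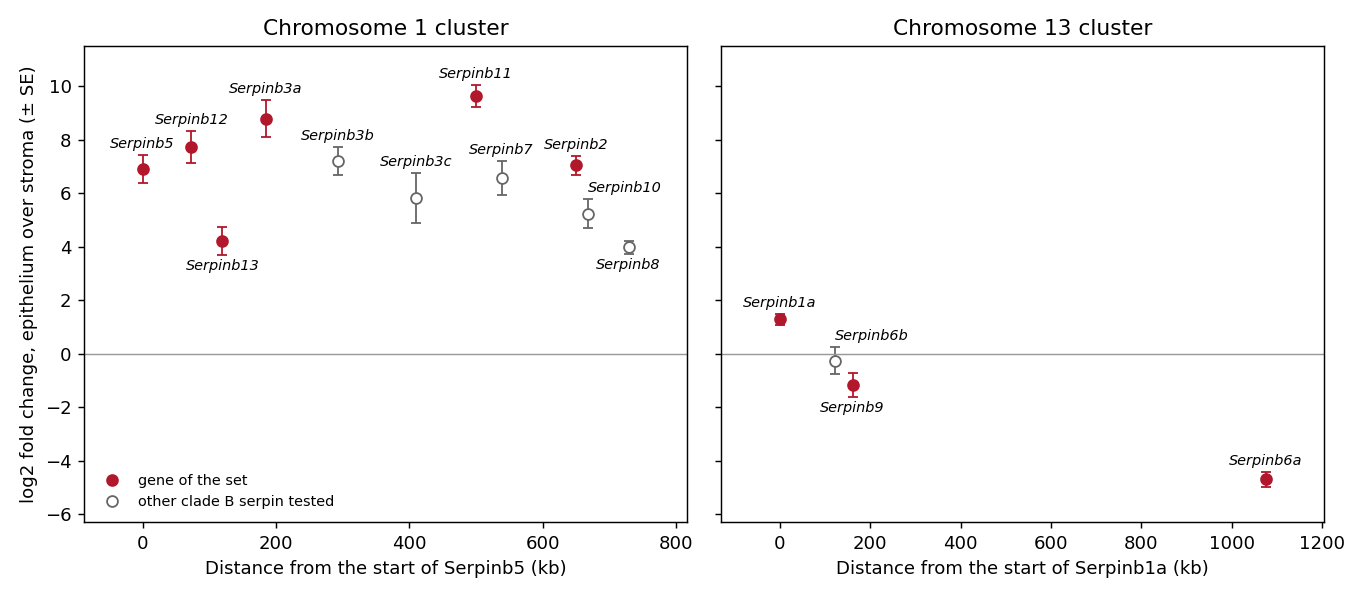
Layer difference along both serpin clusters, as log2 fold change of epithelium over stroma with its SE, against the distance of each gene's start from the first gene of the cluster in kb. Filled points are genes of the set and open points are other clade B serpins that were tested. On chromosome 1 all points lie above 0, from 3.97 for Serpinb8 to 9.63 for Serpinb11, and on chromosome 13 they run from 1.28 for Serpinb1a to -4.69 for Serpinb6a.

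Levels of different genes can be ranked within epithelium once divided by the length of the exons. In normalized counts per kb, the order was Serpinb3a (279.8 ± 74.1, SD, n = 9), Serpinb12 (245 ± 44.6), Spink5 (159.5 ± 33.7), Serpinb5 (35.5 ± 10.6), Serpinb11 (24.8 ± 4.03), Serpinb1a (18.7 ± 4.57), Serpinb2 (13.7 ± 1.99), Serpinb13 (4.84 ± 1.46), Serpinb6a (3.54 ± 1.54) and Serpinb9 (0.491 ± 0.294). The widest steps were from Serpinb6a to Serpinb9, by 2.61 ± 1.20 on the log2 scale, from Spink5 to Serpinb5, by 2.20 ± 0.27, and from Serpinb2 to Serpinb13, by 1.47 ± 0.27.

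Several neighbours in this order did not differ beyond their spread. Serpinb3a was above Serpinb12 in 7 of 9 samples, by 0.16 ± 0.20 on the log2 scale (mean ± SD of the difference within a sample). Serpinb5 was above Serpinb11 in 7 of 9 samples, by 0.46 ± 0.47, and Serpinb13 above Serpinb6a in 7 of 9, by 0.57 ± 0.65. Serpinb1a was above Serpinb2 in 8 of 9 samples. Serpinb12 was above Spink5, Spink5 above Serpinb5, Serpinb11 above Serpinb1a, Serpinb2 above Serpinb13 and Serpinb6a above Serpinb9 in all 9 samples. With coding length in place of exon length, Serpinb12 came first and Serpinb3a second, and Serpinb6a passed Serpinb13.

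**Figure D4:**
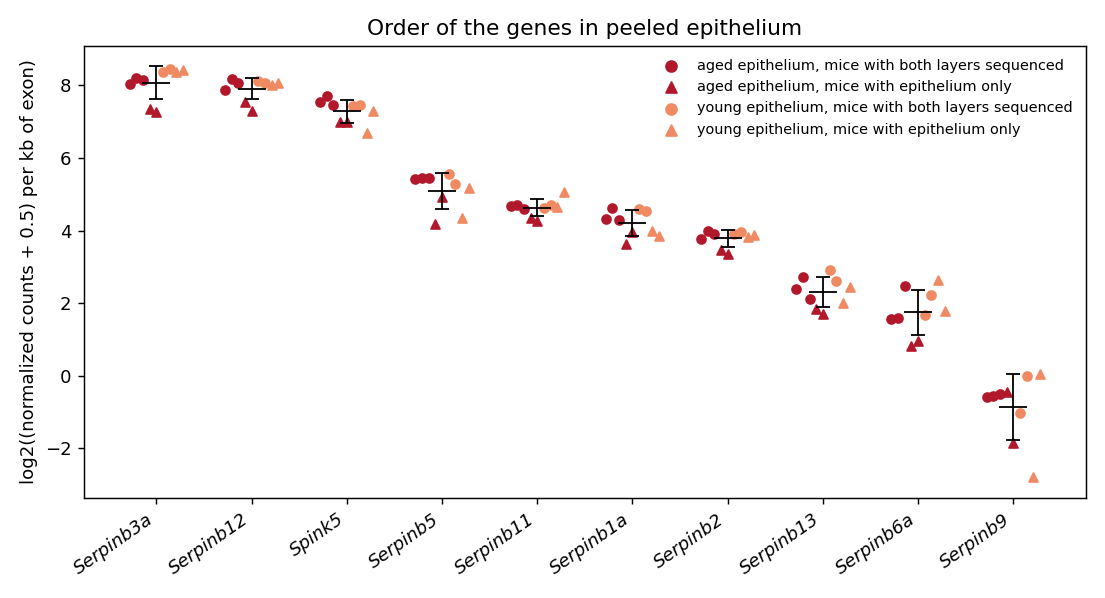
Order of the 10 genes in the 9 epithelial samples, as log2 of normalized counts plus 0.5 per kb of exon, with the mean and SD in black. Circles are mice with both layers sequenced and triangles are mice with epithelium only, and red is aged and orange young. Serpinb3a, Serpinb12 and Spink5 lie highest, and Serpinb9 lies lowest in every sample.

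Serpinb3a, Serpinb12 and Spink5 together made up 86.3% to 89.2% of the summed normalized counts of the 10 genes in each epithelial sample. This share was narrow although the sum itself ran from 1455 (OM8) through 2247 to 2498 (O2). Spink5 alone ran from 26.0% (YF5) to 41.9% (OM8) of the sum. In stroma the sum was 422 to 615, nearly all of it Serpinb6a.

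The second question was whether the genes differ between young and aged epithelium. None of the 10 genes was called (edgeR quasi-likelihood test, 5 aged against 4 young, with a covariate for whether the mouse had stroma sequenced), where 0.0126% of 15859 genes tested were called, or 2 genes. At an unadjusted p under 0.05 there were 3 of the 10 genes and 3.21% of all genes, and DESeq2 called 1 of the 9 genes for which it gave an adjusted p. The log2 fold change of aged over young was negative for 9 of the 10 genes and for 50.5% of all genes, with a median of -0.25 over the 10 and -0.00333 over all.

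Serpinb3a had the largest fitted log2 fold change by age of the 10 genes in this comparison. On the scale of this comparison it read 324 (O1), 354 (O2), 352 (O3), 232 (OF5) and 211 (OM8) normalized counts in aged epithelium. It read 406 (Y1), 432 (Y3), 459 (YF5) and 498 (YM4) in young epithelium. Every aged sample lay below every young sample, as for 0.643% of all genes, and the mean was 294 ± 68.2 (SD, n = 5) against 448 ± 39.2 (SD, n = 4). The log2 fold change was -0.66 (SE 0.16, unadjusted p = 0.000481, adjusted p = 0.381 by edgeR), so it did not pass the correction.

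The call on Serpinb3a depended on the test. It passed with DESeq2 (log2 fold change -0.65, adjusted p = 0.0228) and in edgeR without the filter on low counts (-0.69, adjusted p = 0.00946), and its adjusted p was at least 0.245 in every other alternative that was run. The difference was -0.28 (SE 0.14) within the 5 mice with both layers and -1.06 (SE 0.24) within the 4 mice with epithelium only. On the scale of the layer comparison, markers of differentiated keratinocytes summed to 20798 and 18720 normalized counts in OF5 and OM8 against 28131 in YF5 and 29701 in YM4. The sums of the remaining mice were 45588, 50738 and 50817 (aged) and 43616 and 56057 (young). Basal keratinocyte markers summed to 898 and 1038 in OF5 and OM8 against 1203 in YF5 and 1533 in YM4. In the remaining mice they summed to 2373, 2557 and 2593 (aged) and 2550 and 1817 (young). No marker of either list was called by age. The part of these marker differences in the level of Serpinb3a was not tested.

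The close paralog Serpinb3c had a log2 fold change of the opposite sign, 0.91 (SE 0.40, unadjusted p = 0.0569, adjusted p = 0.9996 by edgeR). On the scale of the layer comparison its normalized counts ran from 85.3 to 225 in aged and from 26.7 to 97.3 in young epithelium, which overlapped. Serpinb3a shares 15.0% of its 50-base stretches with Serpinb3b, Serpinb3c, Serpinb3d and the predicted genes Gm8080 and Gm8089. When the counts of Serpinb3a, Serpinb3b, Serpinb3c and Serpinb3d were added up, a choice made after the data were seen, the log2 fold change by age was -0.36 (SE 0.16, unadjusted p = 0.0338, adjusted p = 0.999). The layer difference of this sum was 7.58 (SE 0.80).

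Serpinb12 read 444 (O1), 532 (O2), 502 (O3), 400.4 (OF5) and 332 (OM8) in aged epithelium and 526 (Y1), 509 (Y3), 546 (YF5) and 589 (YM4) in young. O2 lay within the young range and the 4 other aged mice below it, and the log2 fold change was -0.33 (SE 0.15, unadjusted p = 0.0366, adjusted p = 0.9996 by edgeR). It was -0.07 (SE 0.15) within the 5 mice with both layers and -0.59 (SE 0.24) within the other 4. Serpinb13 had a log2 fold change of -0.42 (SE 0.19, unadjusted p = 0.0444, adjusted p = 0.9996), from 4.16 to 7.84 normalized counts in aged and 5.27 to 9.09 in young.

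Spink5 was the only one of the 10 genes with a positive value. It read 669.9 (O1), 746 (O2), 629.6 (O3), 528 (OF5) and 512 (OM8) in aged epithelium and 616 (Y1), 643 (Y3), 419 (YF5) and 669.9 (YM4) in young. The groups overlapped, and the log2 fold change was 0.03 (SE 0.15), with an interval of 2 SE from -0.26 to 0.33. The other 6 genes also overlapped between the ages. Serpinb6a had a mean of 12.3 ± 5.76 in aged and 18.8 ± 6.66 in young epithelium, and its log2 fold change was -0.04 (SE 0.38) within the mice that have stroma and -1.39 (SE 0.36, unadjusted p = 0.00135, adjusted p = 0.398 by edgeR) within the other 4. It ran from -0.28 without YF5 to -0.83 without Y1. The log2 fold changes of the 6 genes ran from -0.52 (SE 0.36) for Serpinb6a to -0.10 (SE 0.17) for Serpinb5, with Serpinb11 at -0.26 (SE 0.14), Serpinb9 at -0.24 (SE 0.46), Serpinb2 at -0.22 (SE 0.13) and Serpinb1a at -0.15 (SE 0.12).

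**Figure D5:**
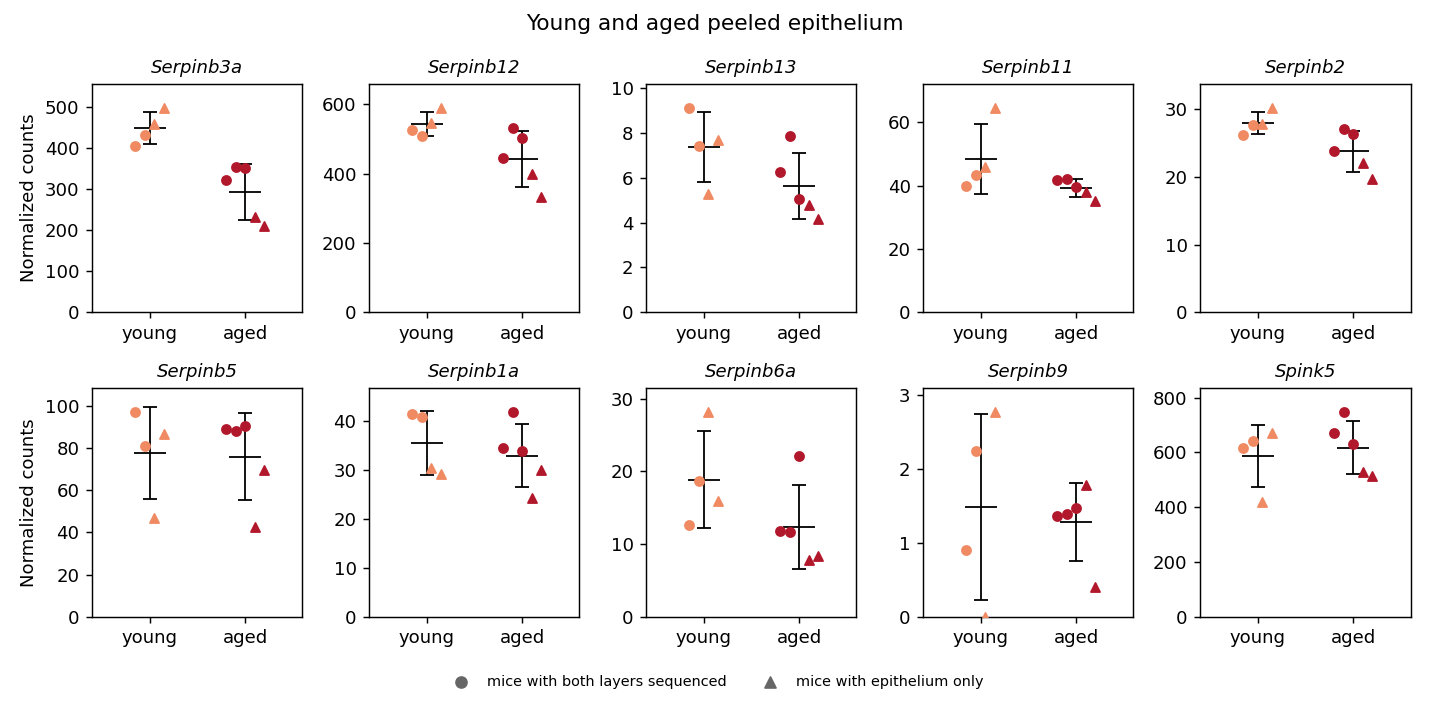
Normalized counts of each gene in young (orange) and aged (red) epithelium on axes that start at 0, with a point per mouse and the mean and SD in black. Circles are mice with both layers sequenced and triangles mice with epithelium only. For Serpinb3a all aged mice (211 to 354) lie below all young mice (406 to 498), and the ages overlap for the other 9 genes.

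In stroma, 3 aged samples were compared with 2 young ones. Serpinb2 and Serpinb11 did not pass the filter on low counts. None of the 8 genes tested was called, none had an unadjusted p under 0.05 where 3.64% of all genes did, DESeq2 called none, and 0% of 21323 genes tested were called. Serpinb6a, the member with the highest stromal level, had a log2 fold change of aged over young of 0.10 (SE 0.26). Serpinb1a was at 0.19 (SE 0.33) and Serpinb9 at -0.20 (SE 0.69). The 5 genes of epithelium had positive values with wide errors, from 0.82 (SE 2.26) for Serpinb13 to 2.50 (SE 1.84) for Serpinb5, from 3 to 948 counts per sample for Spink5, Serpinb12 and Serpinb5.

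Whether the age difference differed between the layers was tested as an interaction over the 10 samples from mice that have epithelium and stroma. None of the 10 genes was called, as 0% of 22771 genes were, and 5 of the 10 had an unadjusted p under 0.05, as 4.3% of all genes did. Serpinb5 had an interaction of -2.53 (SE 0.57) on the log2 scale (unadjusted p = 0.000971, adjusted p = 0.597 by edgeR), and it was called by DESeq2 (adjusted p = 0.0478) and in edgeR without the filter on low counts (adjusted p = 9.74e-06). It rested on the stromal counts of Serpinb5, which were 22, 42 and 18 in aged and 6 and 3 in young samples. Serpinb3a (-2.48, SE 0.98) and Serpinb12 (-2.11, SE 0.87) had the same sign, and Serpinb2 (1.55, SE 0.65) and Serpinb11 the opposite one. Serpinb11 had the smallest p of the 10 genes (unadjusted p = 0.000319, adjusted p = 0.446 by edgeR), but its aged stromal samples were all at 0 counts and its young ones at 2 and 5, so the fitted size is not given. Each of these 4 genes had at most 192 counts in any stromal sample.

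The proteases that these inhibitors are known to act on, and related proteases of epithelium and leukocytes, formed a list of 28 genes. Of these, 24 were tested, 13 were higher in epithelium, 4 were lower and 7 were not called, with a median log2 fold change of 3.99. The largest differences were those of the kallikreins Klk14 (9.06, SE 0.51), Klk13 (7.83, SE 0.46) and Klk11 (7.45, SE 0.66). Klk10 and Klk14 stood at 186 ± 43.2 and 118 ± 27.4 (SD, n = 9) normalized counts per kb in epithelium, beside 159.5 ± 33.7 for Spink5. Other kallikreins of the list were lower, with Klk7 at 28.1 ± 7.04 and Klk5 at 6.65 ± 1.05.

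Toward stroma, the largest differences in this list were those of the lysosomal cathepsin Ctss (-2.01, SE 0.43), the mast cell chymase Cma1 (-1.88, SE 0.52) and the plasminogen activator Plat (-1.34, SE 0.21). The granule proteases that Serpinb1a, Serpinb6a and Serpinb9 are known to inhibit, Elane, Prtn3, Ctsg and Gzmb, did not pass the filter on low counts. Ctsl and Ctsk, targets of Serpinb13, and Plau, the target of Serpinb2, were tested and not called, with log2 fold changes of 0.24 (SE 0.17), 0.04 (SE 0.57) and 0.40 (SE 0.31).

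Other protease inhibitors were split between the layers. Of 25 genes 16 were tested, 8 were higher in epithelium and 8 lower. Toward epithelium the largest were Slpi (6.72, SE 0.32), a secreted inhibitor of elastase, Spint1 (6.45, SE 0.38), which inhibits membrane-bound serine proteases, and the stefin Stfa1 (5.11, SE 1.05). Serpine2 (-4.33, SE 0.27) and Spink10 (-2.40, SE 0.88) were among the 8 that were higher in stroma. Stfa1 and Spink10 had few counts, with mean log2 CPM values of -0.85 and -1.05 against 9.09 for Slpi. By age in epithelium, none of the 7 other clade B serpins, 15 other inhibitors and 24 proteases tested was called.

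Among 1920 well expressed genes (mean log2 CPM no lower than 5), the 3 whose levels over the 14 samples were closest to each member were found by the root mean square difference of log2 normalized counts centred on each gene's mean. Serpinb2, Serpinb9 and Serpinb13, with mean log2 CPM values of 4.37, 1.45 and 2.44, were themselves not among the genes searched. Of the 30 places, 1 was taken by another member, Serpinb12 beside Serpinb3a at 0.41. Fam25c was the closest gene to both Serpinb12 (0.26) and Serpinb3a (0.41). Serpinb11 was closest to Slpi (0.32), then to Klk13 (0.33) and Il1f6 (0.33). Spink5 was closest to Perp (0.29), a protein of desmosomes, Serpinb5 to Trim29 (0.29), Serpinb2 to Anxa9 (0.23) and Serpinb13 to Crot (0.32). Serpinb1a, with its small layer difference, was closest to Ckap5 (0.16). Serpinb6a was closest to Bin1 (0.27) and Slc25a4 (0.28), the latter the ADP/ATP carrier of heart and skeletal muscle. Serpinb9 had no gene nearer than Msn (0.51), with Serping1 (0.53) next.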

How the data were processed

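The data were 14 bulk mRNA libraries of esophageal epithelium or stroma from 9 mice. The authors deposited whole-number counts per gene, not normalized. Alignment was to GRCm38.p6 by Rsubread, featureCounts gave the counts, and bcl2fastq is named in the submitters' processing notes. The annotation release, strand setting and handling of reads matching several genes are not given in the sources used here, and lengths and positions were taken from GENCODE M21.

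The main test was that of edgeR 4.0.16 under R 4.3.3 (TMM, filterByExpr with a minimum count of 10, robust glmQLFit), with Benjamini-Hochberg adjustment over all genes tested and a threshold of 0.05. The standard error is the log2 fold change divided by the square root of F. Layers were compared over all samples, ages within each layer (in epithelium with a covariate for the form of the mouse code, O1 or OF5, which also separates mice with and without stroma), and the interaction in the mice with both layers. Levels per kb used the union of exons and 0.5 added to normalized counts. DESeq2 1.42.0, other filters, upper quartile normalization, subsets, blocks and each mouse left out were alternatives.

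Layers of 1 mouse are paired by its code, and their deviations from the group means correlated at -0.0354 to 0.137 over 5910 genes. Replicates differed by more than sampling noise. The tests were checked on simulated data. At a log2 change of 1, 40 of 64 changed genes were recovered by age in epithelium and 19 of 70 between layers. By age in stroma it was 1 of 67, and for the interaction 0 of 72. At a log2 change of 4 these last were 42 of 73 and 23 of 72. The lack of calls in stroma and in the interaction thus says little about small differences. By age in epithelium the log2 fold changes of the 10 genes ran from -0.66 to 0.03, smaller in size than any change simulated. The lack of calls there also says little about differences of that size. Errors cover the spread between mice and counting error, not losses before sequencing.

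The 10 genes and all lists were chosen with earlier results of these data known. Named were the 10 genes, in each list up to 3 called genes per direction with the largest layer difference and any called by age, and the 3 nearest genes of each member. A gene that this rule would name is not reported here. Some further genes were named after their values were seen. They were Klk5, Klk7, Klk10, Plau, Ctsl, Ctsk, Serpinb6b and Serpinb8, the genes that overlap Serpinb6a or Serpinb2, and Serpinb3d.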

Additional observations from a re-analysis of the deposited data

Results flagged for a closer look

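Of 20 sets of values (10 genes in aged and in young epithelium), 1 held a sample far from the others by Dixon's criterion, and about 1 in 20 does so by chance. Serpinb9 in aged epithelium was lowest in OM8, at 0.396 normalized counts from 2 reads, against 1.36 in the next mouse. The gap was 0.778 of the range of the 5 mice on the log2 scale. OM8 was also the lowest of the aged mice for Serpinb2, Serpinb3a, Serpinb11, Serpinb12, Serpinb13 and Spink5, without passing the criterion. Its reads in protein-coding genes were among the fewest, and the part of depth was not tested.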

How the results depend on the processing

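The 8 genes called higher in epithelium stayed at 8 when each mouse was left out in turn, and the 2 called lower ran from 1 to 2. Only 3 of the 10 genes had at least 10 counts in every sample, of which 2 were called higher and 1 lower, so that filter is no test of the others. Genes called lower were 1 without the filter and 1 with the replicate block (mouse), the lost gene being Serpinb9 each time. DESeq2 gave Spink5 no p-value for the layers and Serpinb9 no adjusted p by age.

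By age in epithelium 1 gene was called by DESeq2 and 1 without the filter, Serpinb3a both times, and 0 when any mouse was left out. For the interaction it was 1 and 1, Serpinb5 both times, and 0 with the mouse block or any mouse left out. In stroma it was 0 throughout. The order in epithelium held for 6 of 10 genes without division by length and for 6 with coding length, and for all 10 under the other alternatives. The cause of these changes in a call was not tested.

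Some age differences near 0 turned sign. Serpinb5 in epithelium was 0.00698 in the 5 mice that have stroma, with -0.218 to 0.0870 when a mouse was left out. Serpinb9 was 0.27 with the number block below, with -0.64 to 0.25 when a mouse was left out. Spink5 was -0.0132 in the 4 other mice, with -0.0667 to 0.183 when a mouse was left out. In stroma Serpinb1a, Serpinb9 and Spink5 were -0.0379, 0.0521 and -0.52 with the number block. With a mouse left out, Serpinb1a ran from -0.0405 to 0.37, Serpinb6a from -0.13 to 0.33 and Serpinb9 from -0.76 to 0.10.

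Mice of unlike age with the same number in their code share only that number (correlations of deviations -0.152 to 0.207), and blocking on it called 0 genes of the set. The mouse block changed no other call. Upper quartile normalization changed no call of the set. Depth limits Serpinb9 most, with 0 to 9 counts in the 4 shallow epithelial samples, and the stromal counts of Serpinb2 and Serpinb11. Over all genes, DESeq2 called 9 genes higher and 19 lower by age in epithelium, and edgeR without the filter 12 and 24, against 1 and 1. Between layers, edgeR without the filter called 8428 genes lower and the filter of 10 counts in every sample left 2047 higher and 2269 lower, against 4382 and 5059. For the interaction DESeq2 called 51 higher and 11 lower and edgeR without the filter 50 and 48, against 0. In stroma by age edgeR without the filter called 13 and 13, DESeq2 1 and 1 and the number block 2 and 4, against 0.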
